A study of Canis lupus familiaris with 6 samples.

Results

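The nuclear genes for the protein subunits of the mitochondrial respiratory chain and ATP synthase were followed in healing holes of the beagle dog mandible, with and without beta-tricalcium phosphate (beta-TCP, a resorbable ceramic bone substitute). The set comprised every gene whose annotated symbol begins NDUFA, NDUFB, NDUFC, NDUFS or NDUFV with a number, UQCR, COX4 to COX8 or ATP5, or is SDHA, SDHB, SDHC or SDHD. It held 62 genes of the 15115 that had a probe set annotated to a single gene. Complex I had 32 of them, complex II 4, complex III 7, complex IV 9 and complex V (ATP synthase) 10. Together they had 118 probe sets. Once stems with both an _a_at and an _at probe set were left out, 113 remained, of which 106 passed the filter on low signal, and all 62 genes kept at least 1.

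The respiratory chain lies in the inner mitochondrial membrane. Complexes I and II pass electrons from NADH and succinate to ubiquinone, complex III hands them to cytochrome c, and complex IV gives them to oxygen. Complexes I, III and IV pump protons as they do so, and ATP synthase lets the protons back to make ATP. In healing bone, osteoblasts and osteoclasts are known as users of both glycolysis and respiration, and early wounds are known to be short of oxygen.

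The specimens were bone cylinders of 4.5 mm diameter and 8 mm length from holes drilled in dogs 9 years old, after 3 months of healing from removal of the premolars. The 6 groups were beta-TCP and control (hole left without beta-TCP) at 4, 7 and 14 days, with 1 array per group and 100 ng of total RNA behind each. There is therefore no error on any single day's difference, and how many animals gave the specimens, or which specimens shared an animal, is not given in the sources used here. Each array was divided by its median signal, and a level is log2(signal + 1), so that a level of 1 is the array's median and a difference of 1 is 2-fold on that scale.

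The arrays at day 14 were deposited on another scale than those at days 4 and 7, so day and processing cannot be told apart there. The array of beta-TCP at day 14 stood apart, with Spearman correlations of 0.724 to 0.779 to the others. The osteoblast markers of a list summed to 2585, 3333 and 6229 times the array median with beta-TCP at days 4, 7 and 14, and to 2182, 3158 and 3696 in the control, with COL1A1, COL1A2 and SPARC as the largest parts at day 14. With beta-TCP, 6, 10 and 9 of its 12 markers with a probe set were higher and 6, 2 and 3 lower. SPP1 (osteopontin) was at 509, 589 and 154 with beta-TCP and at 427, 653 and 177 in the control. BGLAP (osteocalcin), a defining marker of mature osteoblasts, was at 0.157, 4.95 and 3.03 with beta-TCP and at 0.755, 0.653 and 0.225 in the control. These are bulk specimens, in which fewer cells of a type and less RNA per cell cannot be told apart.

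At day 4, nearly the whole set stood higher with beta-TCP. The difference from control was positive for 61 of 62 genes, compared with 62.7% of all 10530 genes tested, and negative for 1 (37.3%). Its median was 0.67, against 0.17 over all genes, and became 0.41 after scaling on the 90th percentile, against -0.01 over all genes, and 0.43 with a pseudocount of 16. It reached 2-fold for 6 genes (4.52% of all genes), and no gene of the set was 2-fold lower (3.1% of all genes). Measured relative to the median of all genes, 59 were higher and 3 lower. The range ran from -0.12 for COX6A2 to 2.18 for COX4I2, and COX4I2, ATP5MC1 (1.27) and NDUFS3 (1.14) were at the top.

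At day 7 the balance was the other way, with smaller differences. Of the 62 genes, 10 were higher with beta-TCP (41.8% of all genes) and 52 lower (58.2%). The median was -0.27, against -0.08 over all genes. SDHD and COX6A2 were at least 2-fold higher (2.96% of all genes), COX6A2 against a control level near the array median that cannot be told from background, and NDUFV3 was at least 2-fold lower (3.44%). The 52 genes higher with beta-TCP at day 4 and lower at day 7 compare with 33.8% of all genes, and the day 4 and day 7 comparisons share no array. The split at day 7 depended on the scaling of the arrays, with 23 higher and 39 lower after quantile normalization and 18 higher and 44 lower after scaling on the 90th percentile.

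At day 14 the set was evenly split, with 31 genes higher and 31 lower (36.8% and 63.1% of all genes) and a median of 0.01, against -0.23 over all genes. COX6A2, with the same limit, and NDUFS1 were at least 2-fold higher (3.49% of all genes) and 5 genes at least 2-fold lower (15.4%). Quantile normalization gave 43 higher and 19 lower, as did scaling on the 90th percentile.

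**Figure D1:**
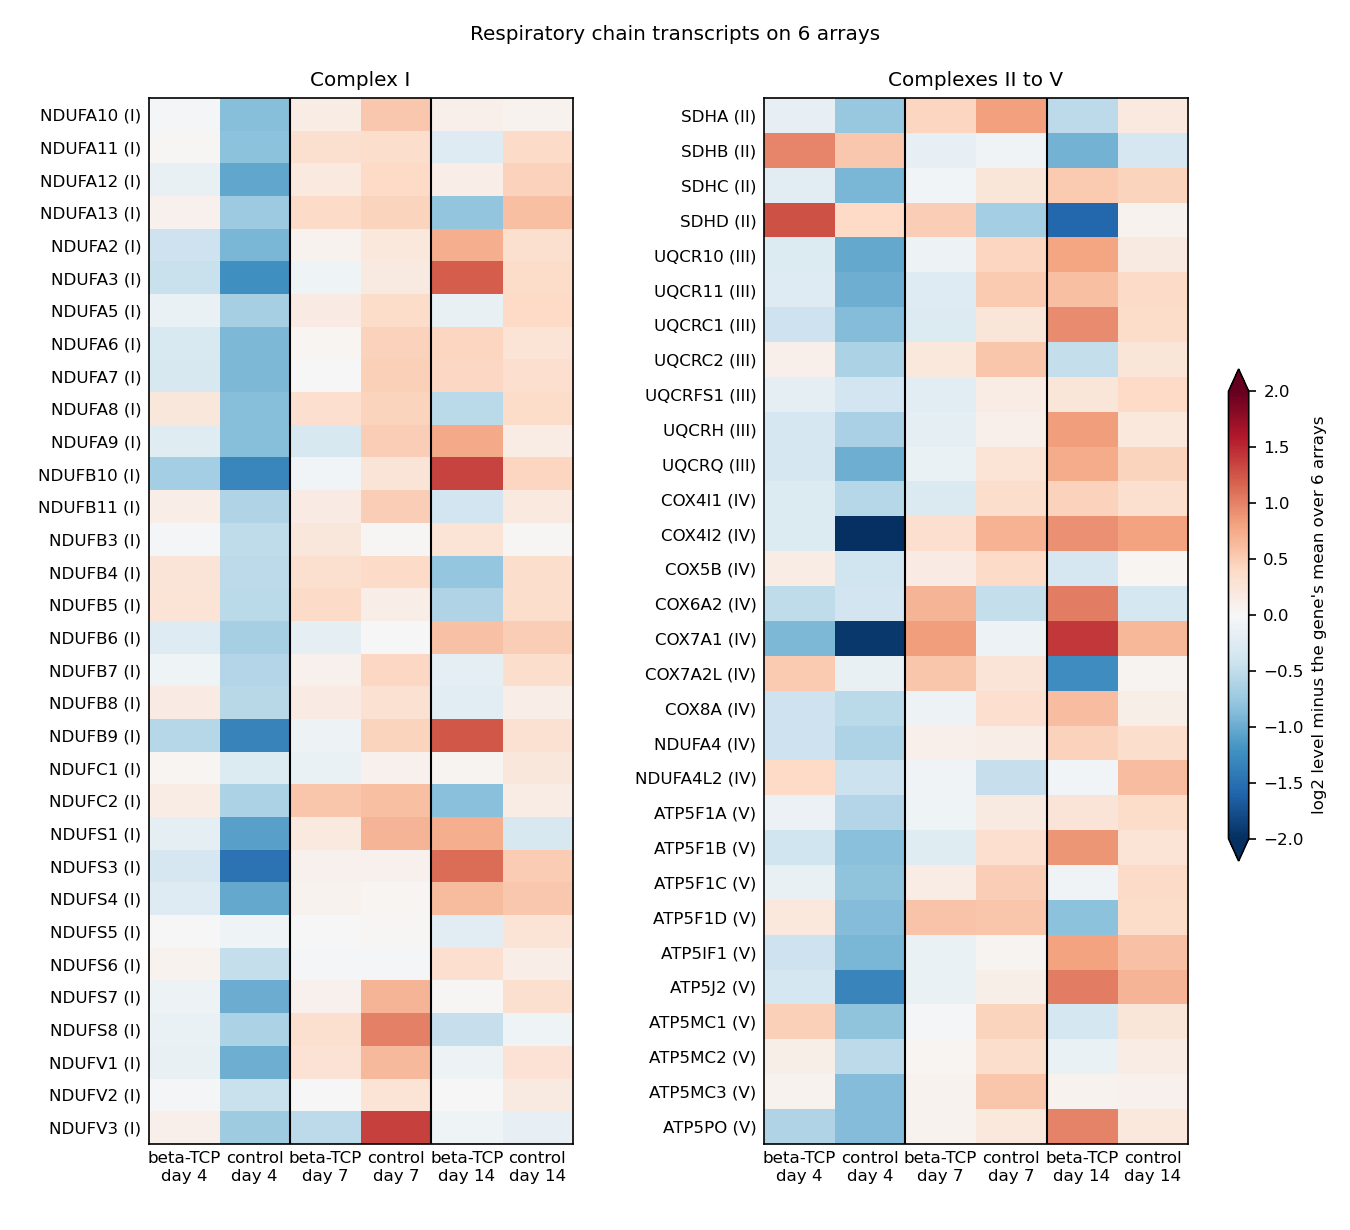
Each row is a respiratory chain gene (its complex in brackets) and each column 1 array, with beta-TCP left of control on each day. Colour gives the log2 level minus the gene's own mean over the 6 arrays, and the scale stops at -2 and 2. The control array of day 4 was the lowest of the 6 for 52 of 62 genes.

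The control array of day 4 was low for most of the set. It held the lowest of the 6 levels for 52 of 62 genes, whereas it was the lowest for 33.3% of all genes. The highest level lay on the array of beta-TCP at day 14 for 27 genes (20.3% of all genes) and on that of the control at day 7 for 20 (20.3%). It lay on the control array of day 14 for 9 genes (22.0%), on the beta-TCP arrays of days 4 and 7 for 3 each (10.5% and 11.3%), and on the control array of day 4 for 0 (15.7%). Within the control, 58 of 62 genes were higher at day 7 than at day 4 (64.8% of all genes) and 4 lower (35.2%), with a median difference of 1.17 against 0.27 over all genes. The difference reached 2-fold upward for 38 genes (15.9%) and downward for SDHD alone (4.73%). Within beta-TCP, 50 were higher at day 7 than at day 4 (55.1% of all genes) and 12 lower (44.9%), and the median difference was 0.17, against 0.06 over all genes. It reached 2-fold upward for COX7A1 and COX6A2 (4.87%) and downward for SDHB (2.58%). This comparison within the control and the day 4 difference between treatments share the control array of day 4. The median difference within the control was 0.77 after quantile normalization and 0.72 after scaling on the 90th percentile.

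The comparisons with day 14 carry its change of scale. Within beta-TCP, 38 genes were higher at day 14 than at day 4 and 24 lower (46.3% and 53.7% of all genes), with 17 at least 2-fold higher (9.72%) and 5 at least 2-fold lower (18.0%). COX7A1 (2.32), NDUFB10 (2.02) and NDUFB9 (1.81) were highest, and SDHD (-2.84), SDHB (-1.92) and COX7A2L (-1.77) lowest. Within the control, 60 were higher and 2 lower (63.3% and 36.7%), with 32 at least 2-fold higher (18.6%) and 0 at least 2-fold lower (7.81%). COX4I2 (3.26), COX7A1 and ATP5J2 were highest, and SDHB (-0.89), SDHD (-0.34) and COX6A2 (0.03) lowest.

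Day 14 against day 7 was mixed in both treatments. Within beta-TCP, 35 genes were higher and 27 lower (41.6% and 58.4% of all genes), 9 and 6 of them at least 2-fold (4.83% and 16.6%). NDUFB10, NDUFB9 and NDUFA3 were highest there, and SDHD, COX7A2L and ATP5F1D lowest. Within the control, 28 were higher and 34 lower (48.7% and 51.3%), 1 and 2 of them at least 2-fold (4.19% and 6.29%). NDUFA4L2 (1.08), COX7A1 (0.76) and SDHD (0.75) were highest, and NDUFV3 (-1.54), NDUFS8 (-1.10) and NDUFS1 (-0.99) lowest.

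The set's median level was 5.87, 6.17 and 6.20 with beta-TCP at days 4, 7 and 14, against 5.24, 6.27 and 6.42 in the control. By signal, 40 of the 62 genes lay in the highest of 10 equal groups of the genes tested. In that group the median difference of all genes between beta-TCP and control was 0.36 at day 4, -0.17 at day 7 and -0.43 at day 14, with 70.4%, 31.1% and 27.9% of its genes higher.

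**Figure D2:**
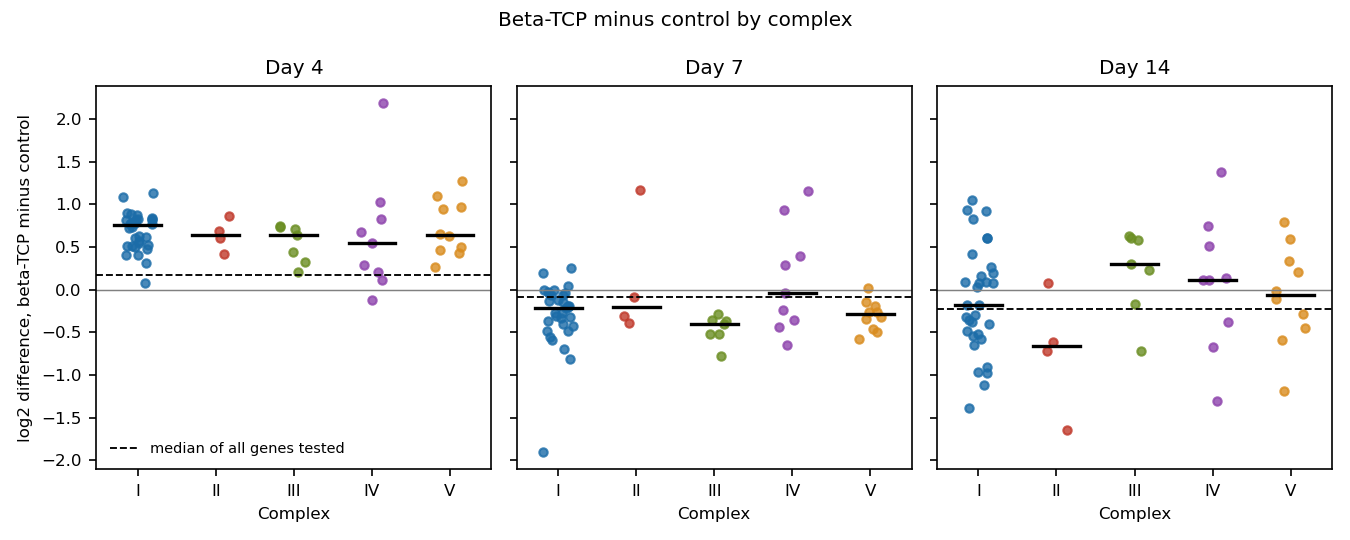
Points are genes, placed by complex, and the vertical axis is the log2 difference of beta-TCP minus control on 1 day (1 array against 1 array). Black bars are medians of a complex and the dashed line is the median of all genes tested. At day 4 the medians of the complexes lie between 0.55 and 0.75, and at day 7 all 7 genes of complex III lie below 0.

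Complex I, the NADH dehydrogenase, was higher with beta-TCP for all 32 genes at day 4 (median difference 0.75), for 4 at day 7 (median -0.21) and for 15 at day 14 (median -0.18). The differences ranged from 0.07 to 1.14 at day 4, from -1.90 to 0.25 at day 7 and from -1.39 to 1.05 at day 14. NDUFV1 carries the site that oxidises NADH. Its level was 4.44, 4.89 and 4.49 with beta-TCP at days 4, 7 and 14, against 3.62, 5.25 and 4.89 in the control. NDUFS1, a core iron-sulfur subunit of the same arm, stood at 4.68, 5.07 and 5.61 with beta-TCP and at 3.80, 5.55 and 4.56 in the control. Both were lowest in the control at day 4. NDUFS1 had a further 3 probe sets above the filter, all of which were lower with beta-TCP at day 14, by -0.81 to -1.06, where the first was higher by 1.05.

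NDUFS3 is a core subunit of the arm that reduces ubiquinone, and NDUFA9 an accessory subunit at the joint of that arm with the membrane. NDUFS3 was measured at 5.79, 6.21 and 7.25 with beta-TCP and at 4.65, 6.21 and 6.64 in the control. NDUFA9 had 4.94, 4.85 and 5.94 with beta-TCP and 4.33, 5.67 and 5.33 in the control, which made its day 7 difference of -0.82 the second lowest of the set. The lowest belonged to NDUFV3, a small accessory subunit next to NDUFV1. That gene's probe set read 4.46, 3.83 and 4.28 with beta-TCP and 3.64, 5.73 and 4.19 in the control, so that the control at day 7 stood above the other 5 arrays. Its other probe set read 3.34 with beta-TCP and 3.43 in the control at day 7 and did not share that excess.

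Among accessory subunits of complex I, NDUFS5 differed least at day 4, at 6.46 with beta-TCP and 6.39 in the control. That rank rested on the probe set, since its other differed by 0.42. NDUFA13, an accessory subunit also known as GRIM-19, had 6.04, 6.33 and 5.16 with beta-TCP and 5.22, 6.39 and 6.55 in the control, the second lowest difference of the set at day 14 (-1.39). NDUFB9, in the membrane arm, had 5.51, 5.96 and 7.32 with beta-TCP and 4.74, 6.52 and 6.38 in the control. At day 14 NDUFB9 was among the 3 highest (0.94), although its second probe set was lower by -0.53. NDUFB10, another subunit of the membrane arm, ran at 5.88, 6.50 and 7.90 with beta-TCP and at 5.25, 6.82 and 6.98 in the control.

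Complex II, succinate dehydrogenase, is also an enzyme of the citric acid cycle. All 4 genes were higher with beta-TCP at day 4 (median 0.64), but they did not move alike over the days. SDHA, the flavoprotein that binds succinate, was measured at 4.73, 5.33 and 4.37 with beta-TCP at days 4, 7 and 14, against 4.13, 5.72 and 5.09 in the control. SDHB, the iron-sulfur subunit, had 5.43, 4.30 and 3.51 with beta-TCP and 5.01, 4.39 and 4.12 in the control. Both of its day 7 arrays lay below both day 4 arrays, an order held by 1 of the 62 genes. The share of all genes with that order is not given here. In 47 genes of the set both day 7 arrays lay above (34.2% of all genes).

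The membrane anchors of complex II are SDHC and SDHD. SDHC stood at 5.82, 5.99 and 6.57 with beta-TCP and at 5.13, 6.30 and 6.49 in the control, much as most of the set. SDHD gave 4.52, 3.74 and 1.68 with beta-TCP and 3.65, 2.57 and 3.32 in the control. Its difference was the highest of the set at day 7 (1.17) and the lowest at day 14 (-1.64), where the array of beta-TCP is the one that stood apart. SDHB and SDHD each had 1 probe set.

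**Figure D3:**
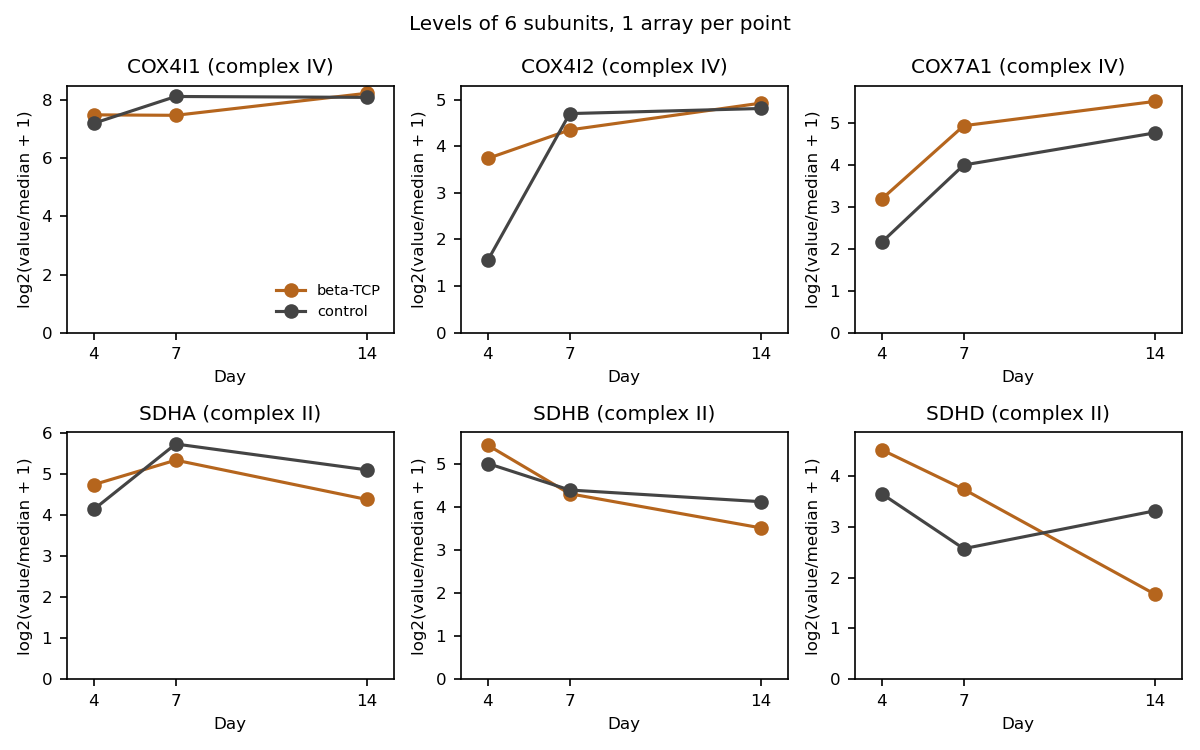
Log2 levels (value over array median, plus 1) of 6 subunits against day, with beta-TCP and control as separate lines and 1 array per point. COX4I2 was at 1.56 in the control at day 4 and between 3.74 and 4.93 on the other 5 arrays. SDHB was lower on both day 7 arrays than on both day 4 arrays.

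In complex III, the cytochrome bc1 complex, the probe sets that stand for the genes shared 1 sign on each of days 4 and 7. All 7 genes were higher with beta-TCP at day 4 (62.7% of all genes, median 0.64) and all 7 lower at day 7 (58.2%, median -0.40). At day 14, 5 were higher (36.8%, median 0.30). Complexes I and V were close to this, with 28 of 32 and 9 of 10 genes lower at day 7. Other probe sets above the filter broke the pattern, UQCR11 with -0.12 at day 4 and UQCRC2 with 0.35 at day 7. The core subunit UQCRC1 had 6.99, 7.13 and 8.36 with beta-TCP and 6.55, 7.65 and 7.77 in the control. Its partner UQCRC2 had 5.72, 5.82 and 5.13 with beta-TCP and 4.98, 6.18 and 5.85 in the control. At day 14 the probe sets that stand for this pair differed in sign, by 0.59 (ending in _at) and -0.71 (ending in _s_at). The other probe set of UQCRC1, ending in _s_at, differed by -0.20, and all 3 of UQCRC2 above the filter were lower.

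UQCRFS1, the Rieske iron-sulfur protein that takes electrons from ubiquinol, differed least within the complex at day 4, by 0.20. It had 6.67, 6.64 and 7.09 with beta-TCP and 6.47, 7.00 and 7.26 in the control. That rank rested on the probe set, since its other differed by 0.81 at day 4. UQCR11, a small accessory subunit, was the third lowest of the set at day 7, at 6.25 with beta-TCP and 7.03 in the control. Its other probe sets above the filter differed by -0.37 and -0.035 on that day. The small subunits UQCRH, which sits beside cytochrome c1, UQCRQ and UQCR10 differed by 0.32, 0.64 and 0.75 at day 4 and by -0.28, -0.40 and -0.52 at day 7. CYC1, which encodes the cytochrome c1 of this complex and is outside the set by its symbol, had differences of 0.83, -0.37 and -1.10 at days 4, 7 and 14.

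Complex IV, cytochrome c oxidase, contains several pairs of isoforms, of which 1 is made in most tissues and the other in particular tissues or conditions. With beta-TCP, 8 of its 9 genes were higher at day 4 (median 0.55), 4 at day 7 (median -0.04) and 6 at day 14 (median 0.12). COX4I1, the common form of a subunit that binds ATP, was measured at 7.50, 7.49 and 8.24 with beta-TCP and at 7.21, 8.13 and 8.10 in the control. COX4I2 is its counterpart known from lung, from pericytes and from low oxygen. It had 3.74, 4.35 and 4.93 with beta-TCP and 1.56, 4.70 and 4.81 in the control.

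The control at day 4 was the low array of COX4I2, at a level that cannot be told from background, so that the difference of 2.18 has no firm size. At days 7 and 14 its treatments differed by -0.35 and 0.11. Markers of endothelium and of mural cells (pericytes and smooth muscle), all 12 of 12 with a probe set, summed to 328, 555 and 999 times the array median with beta-TCP and to 140, 628 and 583 in the control. ACTA2 was the largest part of each sum, at 182 with beta-TCP and 73.5 in the control at day 4. On that day 10 of the 12 were higher with beta-TCP, among them the pericyte marker RGS5 at 2.89 with beta-TCP and 0.168 in the control. The 2 lower were CDH5, at 0.764 with beta-TCP and 2.79 in the control, and NOTCH3, at 0.918 and 1.26. The part of endothelial and mural cells in the COX4I2 result was not tested. A second COX4I2 probe set was below the filter on low signal, with levels of 0.12 to 0.96.

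COX7A1, a form known from heart and skeletal muscle, was higher with beta-TCP on each of the 3 days. Its levels were 3.18, 4.93 and 5.51 with beta-TCP and 2.16, 3.99 and 4.76 in the control. The differences were 1.03, 0.94 and 0.75, and the level was higher at each later day within both treatments. COX6A2, another form known from striated muscle, was near the array median in the control at 1.24, 1.14 and 1.27, and stood at 1.12, 2.30 and 2.65 with beta-TCP. Its second probe set was below the filter, was lower with beta-TCP at day 7 by -0.43, and differed by 0.25 at day 14.

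The 19 of 21 skeletal muscle markers with a probe set summed to 23.8, 33.0 and 30.9 times the array median with beta-TCP and to 28.8, 29.3 and 31.6 in the control. ATP2A1 was the largest part of each sum, at 5.38 to 12.9 times the array median over the 6 arrays. ACTA1 read 1.95 to 5.82 and DES 1.86 to 5.78. The myosin genes MYH1, MYH2 and MYH7 each read between 0.0636 and 1.23 times the array median on all 6 arrays. Single markers differed, with MYL1 at 1.68, 1.82 and 1.53 with beta-TCP and at 3.50, 0.123 and 0.175 in the control, and TTN at 2.45 with beta-TCP and 0.208 in the control at day 14. Of the 9 markers among the genes tested, 3, 5 and 3 were higher with beta-TCP at days 4, 7 and 14, and 6, 4 and 6 lower. The difference reached 2-fold upward for 0, 1 and 2 of these markers (4.52%, 2.96% and 3.49% of all genes). Their part in the COX6A2 and COX7A1 differences was not tested. COX7A2L, a COX7A-related protein that joins complexes III and IV, was among the 3 lowest of the set at day 14. It had 4.74, 4.76 and 2.97 with beta-TCP and 4.06, 4.47 and 4.27 in the control.

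COX5B, a nuclear subunit that binds zinc, had 6.68, 6.69 and 6.19 with beta-TCP and 6.13, 6.92 and 6.57 in the control. COX8A was among the 3 lowest of the set at day 4, with 5.93, 6.25 and 6.97 with beta-TCP and 5.82, 6.69 and 6.46 in the control. That rank rested on the probe set, since another of nearly the same signal differed by 0.66 and the others by 0.28 and 0.75. NDUFA4, long counted with complex I and now known as a subunit of complex IV, had 6.08, 6.60 and 6.96 with beta-TCP and 5.88, 6.64 and 6.84 in the control. NDUFA4L2 is its relative induced by the hypoxia factor HIF1. That gene had 2.39, 1.92 and 1.93 with beta-TCP and 1.56, 1.53 and 2.61 in the control, low levels with no common direction.

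Complex V, the ATP synthase, was higher with beta-TCP for all 10 genes at day 4 (median 0.64), for 1 at day 7 (median -0.29) and for 4 at day 14 (median -0.07). ATP5F1A and ATP5F1B encode the alpha and beta subunits, which form the catalytic head. ATP5F1A had 8.04, 8.08 and 8.41 with beta-TCP and 7.58, 8.34 and 8.53 in the control. ATP5F1B had 8.50, 8.66 and 9.78 with beta-TCP and 8.06, 9.23 and 9.18 in the control. The second probe sets of both genes above the filter fell over the days with beta-TCP. That of ATP5F1A read 7.21, 6.10 and 4.45 with beta-TCP and 6.24, 6.40 and 5.55 in the control. That of ATP5F1B read 7.09, 6.84 and 5.77 with beta-TCP and 6.14, 7.32 and 6.59 in the control. The shaft subunit gamma, ATP5F1C, had 7.25, 7.55 and 7.34 with beta-TCP and 6.60, 7.89 and 7.79 in the control.

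In the probe set that stands for the gene, ATP5F1A, ATP5F1B and ATP5F1C were each lowest in the control at day 4. ATP5MC1, ATP5MC2 and ATP5MC3 encode the same c subunit of the membrane ring. ATP5MC1 had the second highest difference of the set at day 4, with 7.03, 6.54 and 6.21 with beta-TCP and 5.76, 6.99 and 6.80 in the control. ATP5MC3 differed by 0.94 and ATP5MC2 by 0.63 at that day. ATP5J2, subunit f of the membrane part, had 7.81, 8.02 and 9.18 with beta-TCP and 6.84, 8.29 and 8.84 in the control.

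The stalk subunit ATP5PO (OSCP) differed least within complex V at day 4, by 0.26, and had 6.79, 7.46 and 8.39 with beta-TCP and 6.53, 7.61 and 7.60 in the control. ATP5F1D, the delta subunit at the foot of the shaft, had 4.65, 5.0 and 3.61 with beta-TCP and 3.56, 4.98 and 4.79 in the control. Its difference at day 7 was 0.02 in this probe set and -0.67 in its other, and at day 14 -1.18 and 0.52. ATP5IF1, the inhibitor of ATP synthase, had 7.56, 7.84 and 8.77 with beta-TCP and 7.06, 8.03 and 8.56 in the control.

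The additive limma fit of day and treatment over the 6 arrays leaves 2 residual degrees of freedom and takes the treatment effect as the same on each day. Its average beta-TCP effect passed an adjusted p under 0.05 for 0 of 62 genes and for 0 of all 10530 (0.0% in each direction), and at an unadjusted p under 0.05 for 2 genes of the set, both higher, and for 141 higher and 372 lower of all genes (1.34% and 3.53%). The 2 were COX7A1, at 0.90 ± 0.30 (SE, limma adjusted p = 0.68), and COX6A2, at 0.81 ± 0.36 (SE, limma adjusted p = 0.9998). COX4I2 followed at 0.65 ± 0.45 (SE). The lowest average effects were those of NDUFV3 (-0.33), NDUFA13 (-0.21) and NDUFS8 (-0.19), an iron-sulfur subunit of complex I. The opposite signs of most genes at days 4 and 7 enter this fit as error.

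Between day 4 and day 14, averaged over both treatments, 6 genes of the set rose and 0 fell at a limma adjusted p under 0.05, where 1.89% of all genes rose and 3.03% fell. At an unadjusted p under 0.05 there were 23 higher and 2 lower (12.2% and 10.2%). COX7A1 rose by 2.46 ± 0.37 (SE, limma adjusted p = 0.0051) and COX4I2 by 2.22 ± 0.55 (adjusted p = 0.045). The COX4I2 rise was 1.19 with beta-TCP and 3.26 in the control, whose day 4 level cannot be told from background. In complex I, NDUFB10 rose by 1.88 ± 0.42 (adjusted p = 0.029), NDUFS3 by 1.72 ± 0.41 (adjusted p = 0.037) and NDUFA3, a small accessory subunit, by 1.62 ± 0.41 (adjusted p = 0.049). ATP5J2 rose by 1.69 ± 0.41 (adjusted p = 0.043). COX7A1 was also the only gene of the set past the F test over days, which 2.92% of all genes passed.

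Each of these calls rested on 1 probe set. COX7A1 had no other, and COX4I2 no other above the filter. The other probe set of NDUFB10 gave -0.21 between day 4 and day 14 and that of NDUFS3 gave -0.32, in a fit of that probe set type alone. In the same fit the other probe sets of NDUFA3 and ATP5J2 gave smaller rises, of 1.09 and 0.81. All 6 calls involve day 14, whose scale differs. With pseudocounts of 0.25 or 4 in place of 1, a single gene of the set passed, and with 16 or without the filter none did. SDHD (-1.59, limma adjusted p = 0.14), SDHB (-1.40, adjusted p = 0.069) and COX7A2L (-0.78) had the lowest estimates between day 4 and day 14.

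Between day 4 and day 7 no gene of the set passed in the fit of 6 arrays (limma, 0.294% of all genes rose and 0.18% fell), while 10 were higher and 0 lower at an unadjusted p under 0.05 (8.91% and 3.07%). COX4I2 (1.88), COX7A1 (1.79) and NDUFB9 (1.12) had the highest estimates, and SDHD (-0.93), SDHB (-0.87) and NDUFA4L2 (-0.25) the lowest. The COX4I2 rise was 0.61 with beta-TCP and 3.15 in the control, again from a day 4 level that cannot be told from background. With the 4 arrays of days 4 and 7 alone, a fit with 1 residual degree of freedom, 9 genes rose and 0 fell at a limma adjusted p under 0.05, where 7.82% of all genes rose and 2.61% fell. These were COX4I2, COX7A1, NDUFB9, NDUFB10 (1.10), SDHA (1.09), NDUFS1 (1.07), NDUFS8 (1.05), NDUFV1 (1.04) and NDUFS3 (0.99). In that fit the average beta-TCP effect passed for 0 genes of the set and 222 of all genes.

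Between day 7 and day 14 no gene of the set and no gene of all passed (limma, 0.0% in each direction), and at an unadjusted p under 0.05 there were 0 higher and 1 lower in the set, against 212 higher and 813 lower of all genes (2.01% and 7.72%). The highest estimates were those of ATP5J2 (0.86), NDUFB10 (0.78) and NDUFA3 (0.74). COX7A2L (-1.0), NDUFS8 (-0.94) and NDUFC2 (-0.92), a subunit of the membrane arm of complex I, were lowest.

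**Figure D4:**
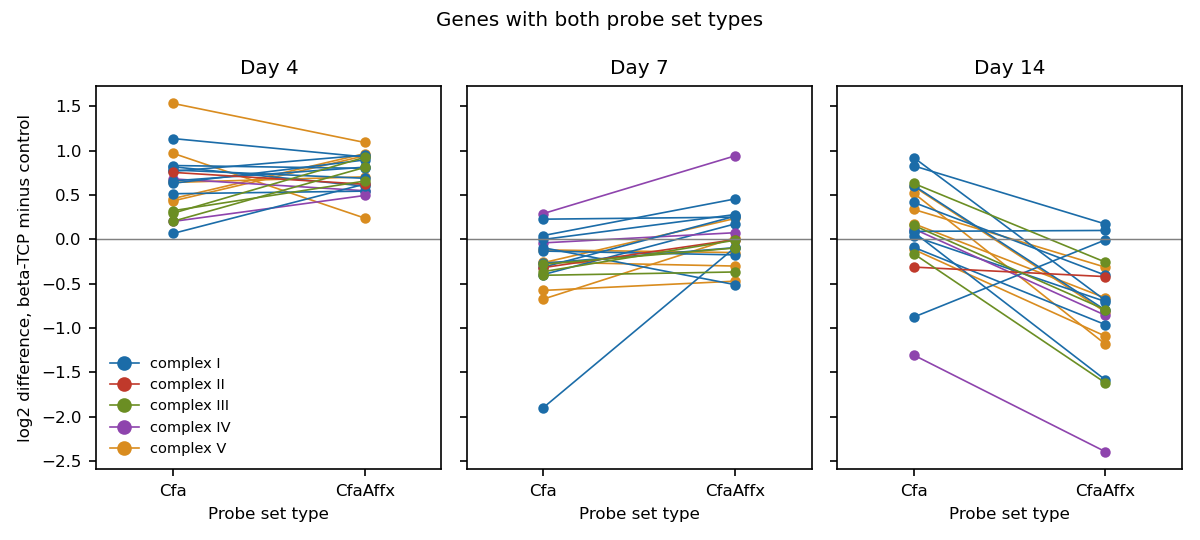
Lines join the Cfa and the CfaAffx probe sets of the same gene for the 20 respiratory chain genes with both types (the mean where a type has several). The vertical axis is the log2 difference of beta-TCP minus control on 1 day. All 20 genes are above 0 in both types at day 4, and at day 14 the CfaAffx value is below the Cfa value for 18 of 20.

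The array carries 2 types of probe set, with names that start Cfa or CfaAffx. The day 4 result was shared by both. Of the 106 probe sets, 102 were higher with beta-TCP at day 4, and in the 20 genes with both types the median difference was 0.65 by Cfa and 0.75 by CfaAffx probe sets. At day 7, 21 probe sets were higher and 85 lower, with medians in the 20 genes of -0.27 by Cfa and -0.01 by CfaAffx probe sets.

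At day 14 the types disagreed. The median difference in the 20 genes was 0.14 by Cfa and -0.75 by CfaAffx probe sets, and the CfaAffx value was the lower in 18 of 20. On the array of beta-TCP at day 14 the CfaAffx probe sets read a median of 2.40 below the Cfa probe sets of the same genes, against 1.47 below in the control at day 14 and 0.78 to 1.38 below on the arrays of days 4 and 7. Probe sets whose names end in _s_at (11 higher, 48 lower, median -0.49) also differed from those ending in _at (22 higher, 12 lower, median 0.10), and over all genes the medians of the 2 endings were -0.46 and -0.19.

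Of the 34 genes with several probe sets above the filter, the probe sets of 3 disagreed in sign at day 4 (NDUFA6, NDUFS1 and UQCR11), of 9 at day 7 and of 26 at day 14. COX4I1, for example, differed at day 14 by 0.14 in its first probe set and by -0.99 in its second. SDHB was measured by a CfaAffx probe set ending in _s_at, and NDUFA13 by a Cfa probe set with that ending.

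**Figure D5:**
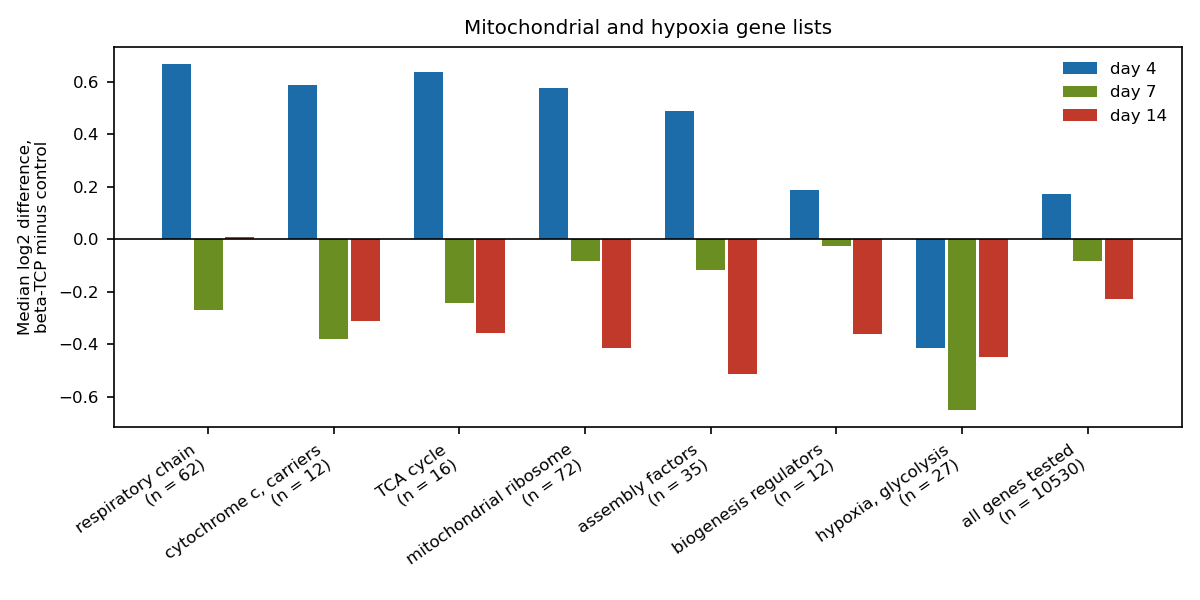
Bars give the median log2 difference of beta-TCP minus control at days 4, 7 and 14 for the respiratory chain, other mitochondrial gene lists, a list of hypoxia and glycolysis genes, and all genes tested, with the number of genes in brackets. At day 4 the mitochondrial lists other than the biogenesis regulators lie between 0.49 and 0.67, and the hypoxia and glycolysis list lies at -0.42.

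Other mitochondrial lists ran in parallel at day 4. The mitochondrial ribosome, which makes the subunits encoded in mitochondrial DNA, was higher with beta-TCP for 67 of 72 genes tested (62.7% of all genes, median 0.58), with MRPS34 (1.41) and MRPL41 (1.29) at the top. Factors that assemble the complexes were higher for 33 of 35 (62.7% of all genes, median 0.49). Among them TMEM126B and FOXRED1, which build complex I, differed by 1.24 and 1.10, while COX17, the copper chaperone of complex IV, differed by -0.46. Genes of the citric acid cycle and pyruvate dehydrogenase had a median of 0.64 over 16 genes, from -0.37 for OGDH to 0.95 for fumarase (FH). Cytochrome c and the carriers of the inner and outer membranes had 0.59 over 12.

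Regulators of mitochondrial biogenesis were closer to all genes, with a median of 0.19 over 12 genes. TFAM, which maintains mitochondrial DNA, differed by 0.82 and the coactivator PPARGC1B by -0.66. At day 7 the medians were -0.08 for the mitochondrial ribosome, -0.12 for assembly factors, -0.24 for the citric acid cycle and -0.38 for cytochrome c and carriers. At day 14 they lay between -0.31 and -0.51 in these 4 lists. None of the genes of these lists passed the average beta-TCP effect (limma), and between day 4 and day 14 a single one did, MRPL27. Genes of the mitochondrial genome had no probe set among the genes tested and were not analysed here.

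Genes of hypoxia and glycolysis ran the other way at day 4 and in the same direction at day 7. With beta-TCP, 24, 22 and 22 of 27 were lower at days 4, 7 and 14 (37.3%, 58.2% and 63.1% of all genes), with medians of -0.42, -0.65 and -0.45. The medians of all genes were 0.17, -0.08 and -0.23, and relative to these the list stood at -0.59, -0.57 and -0.22. The glucose transporter SLC2A1 was lower on each day, at 4.23, 3.50 and 3.17 with beta-TCP against 5.50, 5.89 and 4.34 in the control. At day 4 BNIP3, a mitochondrial receptor for mitophagy, was the lowest of the list at -1.60. At day 7 SLC2A1 (-2.38) and the vascular growth factor VEGFA (-1.57) were the lowest. None of the 27 passed the average beta-TCP effect (limma, lowest adjusted p = 0.26), and 8 were lower and 0 higher at an unadjusted p under 0.05 (3.53% and 1.34% of all genes).

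Cell type markers differed on the same arrays. Of 12 epithelial markers with a probe set (15 listed), 11 were lower with beta-TCP at day 4, and they summed to 23.4, 51.2 and 29.3 times the array median with beta-TCP and to 229.7, 68.2 and 17.4 in the control, with CDH1 at or under 0.774 on every array. Of 9 neutrophil markers (13 listed), 8 were lower with beta-TCP at day 4. The sums were 989.8, 980.3 and 117 with beta-TCP and 1962, 1485 and 319 in the control, with MPO and ELANE at or under 0.742 throughout. S100A8 and S100A9 were the largest parts of these sums at day 4, at 474 and 428 with beta-TCP and 824 and 840 in the control. At day 14, 5 of the 9 were lower and 4 higher, among the higher CAMP at 8.26 with beta-TCP and 1.275 in the control. The osteoclast markers, cells known to be rich in mitochondria, summed to 706, 1328 and 1793 with beta-TCP and to 594, 2646 and 909.9 in the control (10 of 14 listed). At day 7, 9 of these 10 were lower with beta-TCP. The part of these markers in the respiratory chain differences was not tested.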

How the data were processed

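Total RNA of 6 mandible specimens was measured on Affymetrix canine arrays, 1 per group. For days 4 and 7 the deposited values are signal already divided by each array's median (medians of 1.0). For day 14 the deposited values are undivided intensity, with medians of 6.2 with beta-TCP and 12.0 in the control. The software the authors used is not given in the sources used here.

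Here every array was divided by its median over 42860 probe sets, 1 was added and log2 taken. Of the probe sets, 29254 were annotated to a single gene, 439 to several and 13167 to none; 27680 of the first matched a RefSeq gene. Probe set stems with both an _a_at and an _at member (90 stems, 199 probe sets) were left out. A gene was represented by its probe set with the highest mean, if at or above the 40th percentile of all probe sets (level 0.698), which left 10530 of 15110 genes. Subunits such as COX5A and COX6C without a probe set annotated to them alone were not analysed here.

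limma 3.58.1 (R 4.3.3) fitted day and treatment additively, with two-sided moderated tests and Benjamini-Hochberg adjustment over all genes tested. The number of arrays limits the precision. With 1 array per group, the p-values rest on how the treatment difference varied between days. They measure no spread between specimens of the same group. The fit was tested on simulated data for the average beta-TCP effect over 10530 genes. It called 2%, 82%, 100% and 100% of genes changed by 1, 2, 3 and 4 on the log2 scale, with 8 false calls. Detection of a difference that changes sign between days, as in most of the set at days 4 and 7, was not tested. Named were the core subunits, isoforms of restricted expression and their partners, the 3 highest and 3 lowest of each comparison, and every gene past a test. Members, lists and tests were chosen with earlier results of these data known. The alternatives were other scalings, pseudocounts, filters, choices of probe set and subsets of days. Summaries used pandas 2.3.3.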

Additional observations from a re-analysis of the deposited data

Results flagged for a closer look

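The difference between beta-TCP and control had opposite directions at days 4 and 7: the median over the 62 respiratory chain genes was 0.666 at day 4 and -0.27 at day 7, with 1 array against 1 array on each day. With no replicates the difference between the days was not tested.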

How the results depend on the processing

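The medians kept their direction under all 13 alternatives at day 4 (0.41 to 0.81) and day 7 (-0.27 to -0.09). At day 14 the median of 0.01 became 0.37 after quantile normalization, 0.43 after scaling on the 90th percentile, -0.94 with values as deposited and -0.61 with CfaAffx probe sets alone. Day 7 minus day 4 in the control, computed under these alternatives after seeing the data, was 0.77 after quantile normalization and 0.72 after scaling on the 90th percentile, against 1.17. The cause was not tested; the values as deposited mix 2 scales by construction. The average beta-TCP effect was called for no respiratory chain gene under any alternative. Of all genes it was called for 6 with Cfa probe sets alone and for 17, 30 and 222 without the day 4, 7 and 14 pair. Leaving out the beta-TCP day 14 array alone, chosen after seeing the data, gives the same 222 by construction. The control array of day 14 is then fitted exactly by its own day term. The F test over days called 308 of all genes and 1 of the respiratory chain, against 8944 and 60 as deposited, 96 and 0 at a pseudocount of 0.25, 0 and 0 at 4, at 16 and without the filter, 19 and 0 with the mean of probe sets, 9 and 0 with CfaAffx probe sets alone, 88 and 0 without day 4, 720 and 8 without day 7, 1098 and 9 without day 14, 1716 and 11 without the beta-TCP day 14 array, and 2 of the respiratory chain with the left out stems kept. Day 7 minus day 4 called 9 respiratory chain genes without the day 14 pair, and by construction the same 9 without the beta-TCP day 14 array alone. Day 14 minus day 7 called 61 as deposited and 1 with the left out stems kept. With those stems kept, the NDUFC1 probe set of highest mean is an _a_at one that looks exchanged with its _at partner at day 14. In the control it went from 8.07 at day 7 to 0.10 at day 14, and its partner from 0.84 to 8.45. Day 14 minus day 4 called 6, against 61 as deposited, 1 at pseudocounts of 0.25 and 4, with the mean of probe sets and with CfaAffx probe sets alone, 0 at 16 and without the filter, and 2 with each probe set tested separately, chosen after seeing the data. Day 14 minus day 4 reversed for NDUFB10 (-0.21) and NDUFS3 (-0.32) with CfaAffx probe sets alone, and for SDHB (1.61) and SDHD (1.23) as deposited. Day was a term of the fit, so beta-TCP and control were compared within days. No other paired analysis was possible because no animal or replicate number links the arrays otherwise. Detection calls were not used here, so low levels of NDUFA4L2, COX6A2 and, in the day 4 control, COX4I2 cannot be told from background.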
